A study of Mus musculus with 24 samples.

Results

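A set of 10 genes that mark eosinophils or encode eosinophil ribonucleases were followed in adipose tissue of mice with wild-type or mutant STAT5B. They were taken by symbol from the count files: the ribonuclease genes Rnase2a, Ear1, Ear2 and Ear6, the surface receptor genes Siglecf, Ccr3 and Il5ra, the granule protein genes Prg2 and Epx, and the lipoxygenase gene Alox15. All 10 were present among the 24421 gene symbols counted. The C57BL/6 mice were 2 months old and either wild type (WT) or carriers of 1 of 2 changes of a tyrosine in the SH2 domain of STAT5B, to phenylalanine (Y665F) or to histidine (Y665H). Adipose tissue was taken and its total RNA sequenced. Each genotype had 4 male and 4 female libraries, which gave 6 groups and 24 libraries, and WT of the same sex was the control of each mutant. The fat depot, the zygosity and whether each library came from a separate animal are not given in the sources used here, so p-values measure the spread between these samples, which may be technical.

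Eosinophils are granulocytes of the bone marrow that reside in small numbers in adipose tissue, where they are known as a source of interleukin 4 and as neighbours of alternatively activated macrophages. Interleukin 5 drives their growth through a receptor made of IL5RA and the shared beta chain CSF2RB, which signals through JAK2 and STAT5. Eotaxins draw them into tissue through CCR3, and their granules carry major basic protein (Prg2), eosinophil peroxidase (Epx) and ribonucleases of the Ear family. Transcripts of the granule proteins are made mostly by eosinophil precursors, whereas SIGLECF, CCR3 and IL5RA stay on the mature cell. Several ribonucleases and Alox15 are also made by macrophages, so neither is particular to eosinophils.

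The ribonuclease genes are close copies of each other, which bears on how reads could be assigned, so the starts of 2 pairs of coding sequences are shown. Each line gives bases 1 to 90 of the coding sequence in the GENCODE M21 annotation of GRCm38, 5′ to 3′, and capitals mark the bases that differ between the members of a pair.
Rnase2a: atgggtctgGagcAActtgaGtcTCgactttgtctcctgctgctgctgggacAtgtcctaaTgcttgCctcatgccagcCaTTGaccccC
Rnase2b: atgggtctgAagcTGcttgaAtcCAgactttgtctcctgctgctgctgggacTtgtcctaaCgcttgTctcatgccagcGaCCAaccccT
Ear1: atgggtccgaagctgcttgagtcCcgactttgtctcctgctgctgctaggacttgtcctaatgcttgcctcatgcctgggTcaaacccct
Ear2: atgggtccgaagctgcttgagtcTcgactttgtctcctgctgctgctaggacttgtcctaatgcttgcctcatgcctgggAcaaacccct
The Rnase2a and Rnase2b stretches differed at 14 bases, and the Ear1 and Ear2 stretches at 2. Over the whole coding sequence Rnase2a was 83.7% identical to Rnase2b, its closest relative among the genes compared, and 77.2 to 79.7% identical to Ear1, Ear2, Ear6, Ear10 and Ear14. Ear1 and Ear2 were 95.1% identical, and Ear2 and Ear10 were 97% identical. Cut into windows of 100 bases, the Rnase2a transcript shared none of its 591 windows with another annotated gene, and Ear6 also shared none. Ear1 shared 23.9% of its windows, with Ear10 and the pseudogene Ear-ps9, and Ear2 shared 13.9%, with Ear10 and the pseudogene Ear-ps2. Reads from such stretches could have been dropped or assigned to a copy, so the values of Ear1 and Ear2 are uncertain in a way that those of Rnase2a are not.

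The 4 ribonuclease genes lie on chromosome 14 of GRCm38, Rnase2a at chr14:51255262-51256112 on the minus strand, Ear1 at chr14:43818765-43875517 on the minus strand, Ear2 at chr14:44102654-44103534 on the plus strand and Ear6 at chr14:51853699-51854643 on the plus strand. Siglecf lies at chr7:43351341-43359531 (plus), Ccr3 at chr9:124021972-124031689 (plus) and Il5ra at chr6:106710357-106749037 (minus). Prg2 lies at chr2:84980461-84983632 (plus), Epx at chr11:87864000-87875536 (minus) and Alox15 at chr11:70344152-70352031 (minus).

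Group means of Rnase2a, Siglecf, Ccr3 and Il5ra were highest of all 6 groups in Y665F females, as were those of Alox15, Prg2 and Ear1. The 250 bases before the starts of Rnase2a, Siglecf, Ccr3 and Il5ra are printed. They are given on the strand of the gene, from the RefSeq promoter table for GRCm38.p6. Capitals mark GATAA or its reverse complement TTATC, the core of the sites that GATA factors bind. GATA1 is a transcription factor that eosinophil development depends on.
Rnase2a: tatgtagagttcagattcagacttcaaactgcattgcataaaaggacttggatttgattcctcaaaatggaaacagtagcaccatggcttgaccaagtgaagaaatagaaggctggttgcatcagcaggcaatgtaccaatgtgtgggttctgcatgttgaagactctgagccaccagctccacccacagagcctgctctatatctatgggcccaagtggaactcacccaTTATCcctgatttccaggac
Siglecf: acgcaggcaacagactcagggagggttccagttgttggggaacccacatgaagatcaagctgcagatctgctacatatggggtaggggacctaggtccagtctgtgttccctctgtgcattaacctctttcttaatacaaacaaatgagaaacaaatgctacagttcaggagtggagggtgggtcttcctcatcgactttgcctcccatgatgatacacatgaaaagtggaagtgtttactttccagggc
Ccr3: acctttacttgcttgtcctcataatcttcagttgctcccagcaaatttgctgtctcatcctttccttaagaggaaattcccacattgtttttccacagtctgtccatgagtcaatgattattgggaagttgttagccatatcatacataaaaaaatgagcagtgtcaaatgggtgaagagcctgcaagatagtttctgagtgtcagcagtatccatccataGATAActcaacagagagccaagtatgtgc
Il5ra: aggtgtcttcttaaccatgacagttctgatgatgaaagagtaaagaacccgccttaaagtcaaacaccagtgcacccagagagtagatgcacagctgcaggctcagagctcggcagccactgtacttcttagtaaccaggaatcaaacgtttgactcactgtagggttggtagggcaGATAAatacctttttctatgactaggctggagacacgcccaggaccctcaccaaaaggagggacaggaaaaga
These windows are chr14:51256113-51256362, chr7:43351091-43351340, chr9:124021721-124021970 and chr6:106749038-106749287. The motif occurred once each before Rnase2a, Ccr3 and Il5ra, at 15, 24 and 68 bases from the start. It did not occur in the windows of Siglecf, Ear1, Ear2, Ear6 and Epx. Of 32851 promoters of the same length, 22.6% held it on either strand. The motif TTCNNNGAA, the form of site that STAT5 binds, was in 7.02% of those promoters and in none of the 8 windows of members. Windows for Prg2 and Alox15 were not analysed here.

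The libraries held 20982647 to 41345247 counts on genes, with a median of 34577594. Levels are given as CPM, the counts of a gene per 1000000 counts on all genes, and 3 counts, the upper limit that a count of 0 allows, corresponded to 0.0726 to 0.143 CPM. Intervals and limits of this kind cover counting error alone. The members other than Alox15 were therefore near the limit of detection in many libraries. The 12 adipocyte genes checked were all above 1 CPM in every group on average, with a summed level of 9365 to 34013 CPM per library. Epididymis genes summed to 858 to 9350 CPM in 3 of 4 WT male libraries and to 0.230 CPM in the fourth, and ranged from 0.502 to 1156 CPM in the mutant males. Skeletal muscle genes summed to 144 to 1212 CPM in WT females and to 77.7 to 228 CPM in Y665F females. Epithelial genes reached 1241 CPM in library 3 of the Y665F females, against 30.4 to 193 CPM in the other 3.

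Rnase2a, which encodes a ribonuclease of the eosinophil-derived neurotoxin type, was high in Y665F adipose of both sexes and nearly absent from Y665H females. It was singled out earlier for its difference between Y665H and Y665F females, so its levels in the female mutants are a description with no test. The 4 Y665F female libraries had 1.83, 1.83, 2.54 and 2.00 CPM. The 4 WT female libraries had 0.0271, 0.0519, 0.134 and 0.202 CPM. The groups did not overlap. The 4 Y665H female libraries held 1 count of Rnase2a in 142536068 gene counts, with 0.0258 CPM in library 1 and no count in libraries 2, 3 and 4. The ratio of Y665F to Y665H females, 245 counts against 1, was 292 with an exact 95% counting interval of 51.9 to 11570. WT females had 15 counts, and the ratio of WT to Y665H females was 14.5 with an interval of 2.23 to 611. The lowest WT female library had 1 count of the gene, as the highest Y665H female library did, so the separation of these groups rested on depth alone.

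In males Rnase2a was again highest in Y665F, but Y665H males did not show the near absence seen in Y665H females. The 4 Y665F male libraries had 2.41, 2.31, 1.24 and 0.834 CPM, above all 4 WT male libraries with 0.0576, 0.448, 0.0863 and 0.203 CPM. The 4 Y665H male libraries had 0.132, 0.386, 1.12 and 0.411 CPM. They overlapped with both other groups of males. The fitted log2 fold change of Y665F over WT was 3.17 (SE 0.68, adjusted p = 0.135, edgeR's quasi-likelihood test with Benjamini-Hochberg adjustment over all genes) and did not pass the threshold of 0.05. That of Y665H over WT was 1.40 (SE 0.78, adjusted p = 0.407), and that of Y665H over Y665F was -1.79 (SE 0.61, adjusted p = 0.183). Ordered by mean, the groups ran from Y665F females at 2.05 ± 0.336 CPM (SD, n = 4) through Y665F males at 1.70 ± 0.782, Y665H males at 0.512 ± 0.424, WT males at 0.198 ± 0.177 and WT females at 0.104 ± 0.0801 to Y665H females at 0.00646 ± 0.0129. Neighbours in this order overlapped in range at every step but the last.

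The other ribonucleases were close to the detection limit. Ear6 had no count in any of the 24 libraries, and neither did its relative Ear14. Rnase2b and Ear10 had 5 and 4 counts in all libraries together. Ear1 totalled 158 counts and was present in all 24 libraries, with group means from 0.0971 ± 0.0825 CPM in Y665H males to 0.261 ± 0.137 CPM in Y665F females (SD, n = 4). Its fitted log2 fold change of Y665F over WT females was -0.01 (SE 0.44, adjusted p = 0.995, edgeR).

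Ear2 totalled 71 counts in 23 libraries. In males the 4 Y665F libraries had 0.128, 0.176, 0.143 and 0.289 CPM, the WT libraries 0.115, 0.0320, 0.0863 and 0.0289 CPM, and the Y665H libraries 0.0330, 0.0257, 0.0605 and 0.0967 CPM. Y665F males lay above both other male groups in CPM without overlap, with 23 counts against 9 and 8. In counts the groups overlapped: Y665F libraries 1 and 3 held 4 and 3, and WT library 1 and Y665H library 4 held 4 each. The separation in CPM thus rested on depth. Ear2 was below the low-count filter of the fit, so a two-sided exact permutation test of CPM was used, which gave p = 0.0286 against each group, the smallest p that 4 against 4 allows. Over the 26 such exact tests of members below the filter, these were the 2 with p under 0.05. Group means of Ear2 in females were 0.131 ± 0.105 CPM in Y665F, 0.0539 ± 0.0212 in WT and 0.0495 ± 0.0433 in Y665H.

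**Figure D1:**
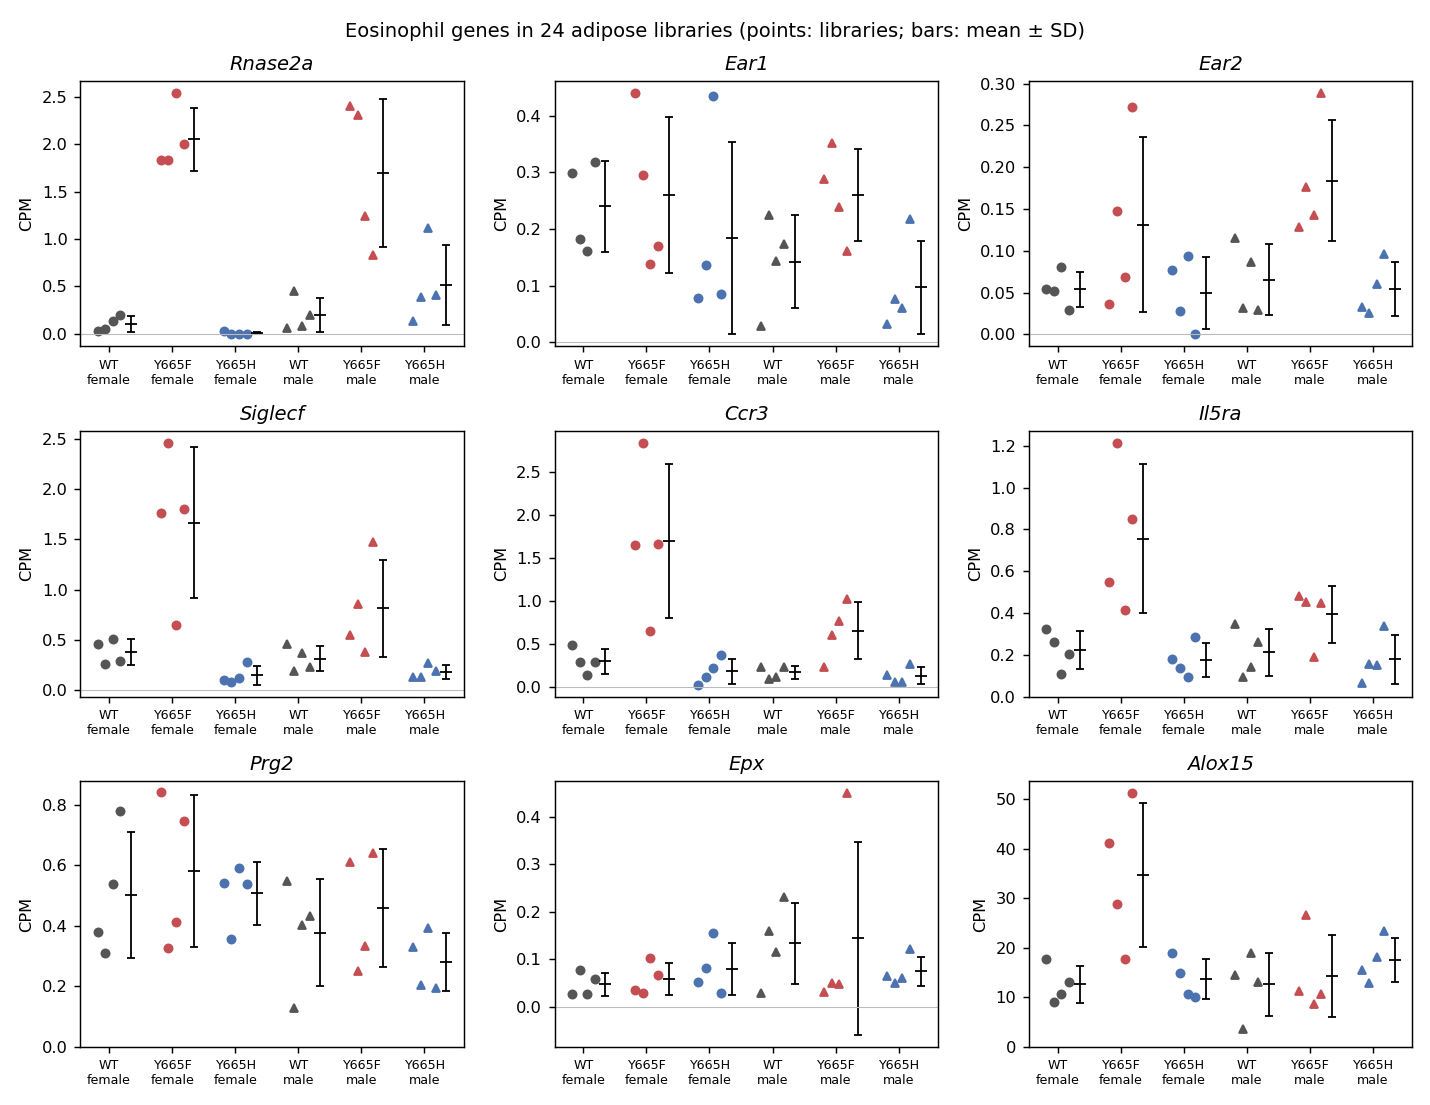
CPM (linear axes) of 9 members in each of the 24 libraries, by genotype and sex (circles, females; triangles, males), with the mean and SD beside the points; Ear6 had no counts and is not drawn. Group means of Rnase2a, Siglecf, Ccr3, Il5ra, Alox15, Prg2 and Ear1 were highest in Y665F females, and each of these genes overlapped with Y665F males. Prg2 and Epx overlapped between all groups.

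The 3 surface receptor genes had higher levels in Y665F females than in WT females. Siglecf encodes the sialic acid receptor that marks mouse eosinophils. Its levels were 1.76, 2.45, 0.652 and 1.80 CPM in Y665F females and 0.461, 0.259, 0.511 and 0.289 CPM in WT females, with no overlap. Its log2 fold change was 2.01 (SE 0.43, adjusted p = 0.0455, edgeR). Ccr3, the eotaxin receptor, had 1.65, 2.84, 0.652 and 1.66 CPM in Y665F females and 0.488, 0.285, 0.134 and 0.289 CPM in WT females. These groups did not overlap either, and the log2 fold change was 2.38 (SE 0.51, adjusted p = 0.0457, edgeR). Il5ra, the chain of the interleukin 5 receptor that binds the cytokine, had 0.549, 1.21, 0.412 and 0.849 CPM against 0.326, 0.259, 0.108 and 0.202 CPM. It did not overlap, but its log2 fold change of 1.63 (SE 0.44, adjusted p = 0.0803, edgeR) did not pass the threshold. In bulk tissue, fewer or more cells of a type and less or more RNA per cell cannot be told apart.

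Apart from Rnase2a, 6 members passed the low-count filter in this comparison and 2 of them, Siglecf and Ccr3, were called, both higher, where 3.33% of 15642 genes were called in either direction and 2.31% as higher. Siglecf, Ccr3, Il5ra and Rnase2a each had all 4 Y665F libraries above the CPM level of the filter but only 2, 1, 1 and 0 of the 4 WT libraries. They entered the fit through the group in which they were high, so these counts are a description and support nothing. Siglecf, Ccr3, Il5ra and Rnase2a were higher with no overlap, where 19.9% of all genes were. Without the low-count filter the adjusted p was 0.0521 for Siglecf and 0.0517 for Ccr3 (edgeR), which ended both calls. The 12 adipocyte genes had a median log2 fold change of -0.42 in the same comparison, with 0 of 12 positive and none called. Their sum was 15020 CPM in library 3 and 23146 to 27172 CPM in the other 3 Y665F female libraries, against 25398 to 30139 CPM in WT females, and its part in the rise of the receptor genes was not tested. The lowest Y665F library was number 3 for each of the 3 receptor genes, the library with the high epithelial sum. Without it, 5 members were called, Rnase2a among them as a description with no test. Siglecf stood at a log2 fold change of 2.28 (adjusted p = 0.00741, edgeR) and Ccr3 at 2.66 (adjusted p = 0.0111, edgeR). Il5ra (adjusted p = 0.0430) and Alox15 (adjusted p = 0.0125) were added, also by edgeR. Leaving out any other library of these 8 ended the calls of Siglecf and Ccr3, with adjusted p up to 0.124 and 0.121 and Siglecf and Ccr3 fold changes no lower than 1.73 and 1.99 (log2). A covariate chosen after seeing the data, the mean log2(CPM + 1) of the skeletal muscle genes, was also added. It left log2 fold changes of 1.74 for Siglecf and 2.65 for Ccr3, with adjusted p = 0.224 and 0.169 (edgeR), and no gene of all those tested was called in that fit.

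In males the receptor genes had higher means in Y665F than in WT, and none passed the test. Siglecf had 0.546, 0.854, 0.381 and 1.48 CPM in Y665F males and 0.461, 0.192, 0.374 and 0.231 CPM in WT males, which overlapped. Its log2 fold change was 1.38 (SE 0.49, adjusted p = 0.253, edgeR). Il5ra had 0.481, 0.452, 0.191 and 0.449 CPM against 0.345, 0.0959, 0.144 and 0.260 CPM, a log2 fold change of 0.93 (SE 0.48, adjusted p = 0.348, edgeR). In Il5ra, 3 Y665F male libraries exceeded every WT male library, and library 3 did not. Ccr3 had 0.225, 0.603, 0.763 and 1.03 CPM against 0.230, 0.0959, 0.115 and 0.231 CPM, and a two-sided exact permutation test gave p = 0.0857. Library 1 of the Y665F males lay among the WT values for Ccr3. WT male library 2 was the lowest WT male library for each receptor gene, whereas Rnase2a was highest there among WT males. That library had the highest epididymis sum, 9350 CPM. Its adipocyte sum was 9365 CPM, against 21057 to 26173 CPM in the other WT male libraries. The part of this library in the male differences was not tested. None of the 5 members tested in males was called, where 0% of 16240 genes was called at all. Of those genes 2772 had an unadjusted p under 0.05, Rnase2a and Siglecf among them, and DESeq2 called 1 member, Rnase2a. Rnase2a and Siglecf each had 4 Y665F libraries above the filter level but only 1 and 2 WT libraries, and Il5ra had 3 and 1. These counts are therefore a description. Rnase2a and Ear2, 2 of the 10 members, were higher in Y665F males without overlap, where 5.59% of all genes tested were.

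Whether the effect of Y665F differed by sex was fitted for 7 members, and none passed, where 0% of 16732 genes passed. Rnase2a is among the 7 as a description with no test, since the female values chose it. For Siglecf the log2 fold change in males minus that in females was -0.62 (SE 0.68, adjusted p = 0.601, edgeR) and for Ccr3 -0.42 (SE 0.78, adjusted p = 0.782). The intervals of 2 SE, -1.98 to 0.73 and -1.98 to 1.15, held both no difference and a large one. Unadjusted p was under 0.05 for 3645 genes and for none of the 7.

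**Figure D2:**
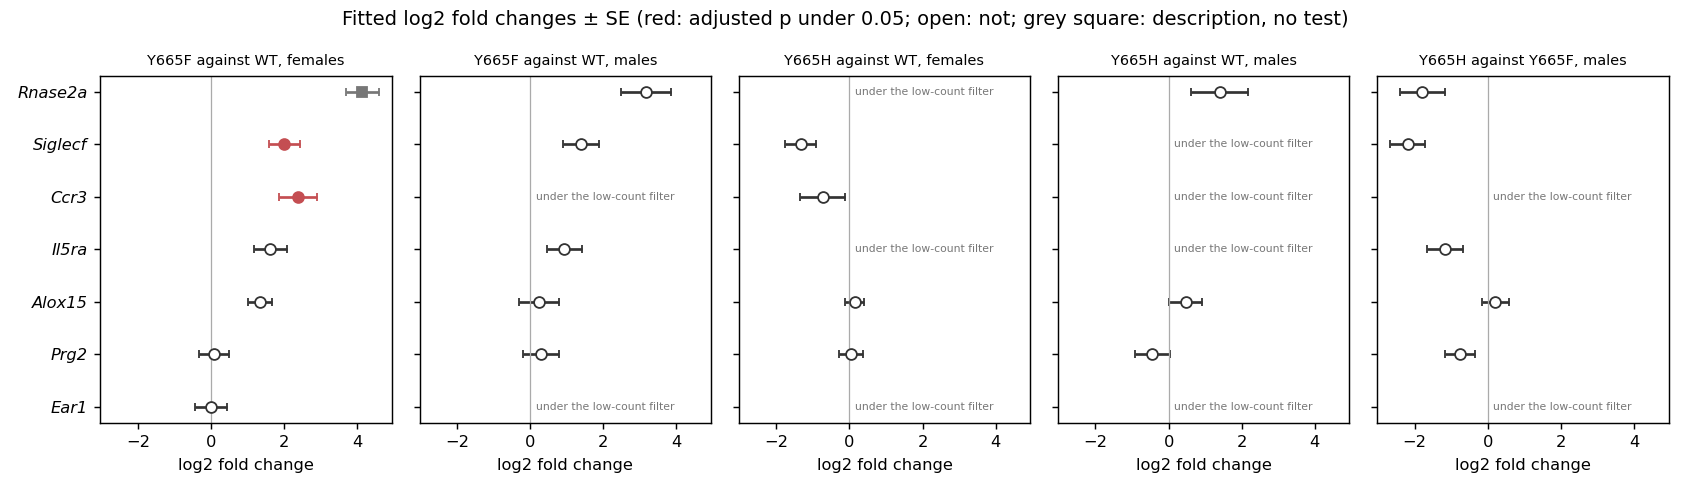
Fitted log2 fold changes with bars of 1 SE for the 7 members that passed the low-count filter in at least 1 contrast, in 5 contrasts (horizontal axis, log2; red, adjusted p under 0.05; open, not under 0.05; grey square, description with no test). Siglecf and Ccr3 in Y665F against WT females were the called values, at 2.01 and 2.38, and Prg2 lay near 0 there at 0.07.

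In Y665H females the receptor genes lay at or below the WT females, without a call. Siglecf had 0.103, 0.0823, 0.124 and 0.284 CPM in Y665H females, a log2 fold change against WT of -1.33 (SE 0.43, adjusted p = 0.111, edgeR). Library 4 of the Y665H females lay within the WT range and the other 3 lay below it. Ccr3 had 0.0258, 0.11, 0.218 and 0.369 CPM, a log2 fold change of -0.73 (SE 0.61, adjusted p = 0.487, edgeR), and Il5ra had 0.181, 0.137, 0.0933 and 0.284 CPM. Both overlapped with WT. None of the 4 members tested was called, where 3.34% of 15469 genes were. Of them 1, Siglecf, had an unadjusted p under 0.05, as did 3679 genes. Siglecf and Ccr3 each had 3 WT libraries but 1 Y665H library above the filter level. They entered the fit mostly through the group in which they were higher, so these counts are a description. Rnase2a, 1 of the 10 members, was lower without overlap, where 6.81% of genes were.

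Y665H males likewise did not differ from WT males by the test in any member. Siglecf had 0.132, 0.129, 0.272 and 0.193 CPM in Y665H males, and an exact permutation test against WT males gave p = 0.143. Ccr3 had 0.132, 0.0514, 0.0605 and 0.266 CPM (exact permutation p = 0.543) and Il5ra had 0.0659, 0.154, 0.151 and 0.339 CPM (exact permutation p = 0.743). These ranges overlapped with those of WT males. Of the 3 members tested by the fit none was called, and 0% of 16406 genes was. Rnase2a had 3 Y665H libraries but 1 WT library above the filter level, so this count is a description. Unadjusted p was under 0.05 for 1874 genes and for no member.

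Y665H was set directly against Y665F as well. In males all Y665H libraries lay below all Y665F libraries for Siglecf, with a log2 fold change of -2.19 (SE 0.47, adjusted p = 0.0713, edgeR). The call was made by DESeq2 (adjusted p = 0.0115) and by the fit over all 24 libraries (adjusted p = 0.0229). Leaving out single libraries gave adjusted p of 0.0998 to 0.205 (edgeR). Siglecf had 4 Y665F but 0 Y665H libraries above the filter level. It entered the fit through the group in which it was high, so these calls are a description and support nothing. Il5ra stood at -1.17 (SE 0.50, adjusted p = 0.264, edgeR). It had 3 Y665F libraries but 1 Y665H library above the filter level, so this value is a description too. Ccr3 was 0.127 ± 0.0992 CPM in Y665H and 0.654 ± 0.336 CPM in Y665F males (SD, n = 4, exact permutation p = 0.0571). None of the 5 members tested was called, where 1.03% of 15986 genes were, and 3 had an unadjusted p under 0.05, as did 2879 genes. Siglecf and Ear2 were lower without overlap, where 6.17% of genes were.

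In females the same contrast was the one Rnase2a was picked from, so its values are given with no test for any member. The log2 fold changes of Y665H over Y665F were -7.44 for Rnase2a, a fitted value that depends on the prior count, -3.34 for Siglecf, -3.12 for Ccr3, -1.96 for Il5ra, -1.19 for Alox15 and -0.04 for Prg2. Of these 6 genes, 4 would be called, all lower, where 17.4% of 15493 genes were called and 8.59% as lower, and nothing is read from that count. All 4 Y665H females lay below all 4 Y665F females for Siglecf, Ccr3 and Il5ra, as 21.5% of genes did. Both mutants were also set against the same WT libraries above, so those comparisons share their controls.

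Neither granule protein gene passed the test in Y665F against WT, and whether they differed from the receptor genes in their change was not tested. Prg2, which encodes major basic protein, had group means from 0.280 ± 0.0970 CPM in Y665H males to 0.582 ± 0.252 CPM in Y665F females (SD, n = 4). Its 4 libraries were 0.843, 0.325, 0.412 and 0.747 CPM in Y665F females and 0.380, 0.311, 0.538 and 0.781 CPM in WT females, which overlapped over most of their range. The log2 fold change was 0.07 (SE 0.40, adjusted p = 0.920, edgeR), with an interval of 2 SE from -0.74 to 0.88. In males it was 0.30 (SE 0.50, adjusted p = 0.759, edgeR), with an interval from -0.69 to 1.29. Epx, which encodes eosinophil peroxidase, had 7 to 18 counts per group of 4 libraries, with 14 of the 18 in Y665F males from library 4. Exact permutation tests of Epx gave p = 0.571 in females and p = 0.914 in males for Y665F against WT.

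Summed, Siglecf, Ccr3 and Il5ra reached 4.12 ± 1.96 CPM in Y665F females, 0.903 ± 0.249 in WT females and 0.503 ± 0.295 in Y665H females (SD, n = 4). In males the sums were 1.86 ± 0.783 CPM in Y665F, 0.694 ± 0.270 in WT and 0.486 ± 0.220 in Y665H. Every Y665F library lay above every WT library of its sex in this sum. Prg2 and Epx together stood at 0.641 ± 0.248, 0.550 ± 0.208 and 0.587 ± 0.126 CPM in the females of the 3 genotypes in the same order. Library 4 of the Y665F males had the highest receptor sum of the males, 2.95 CPM, and the highest granule sum of all 24 libraries, 1.09 CPM. These sums are descriptions, since the members were chosen with results known.

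**Figure D3:**
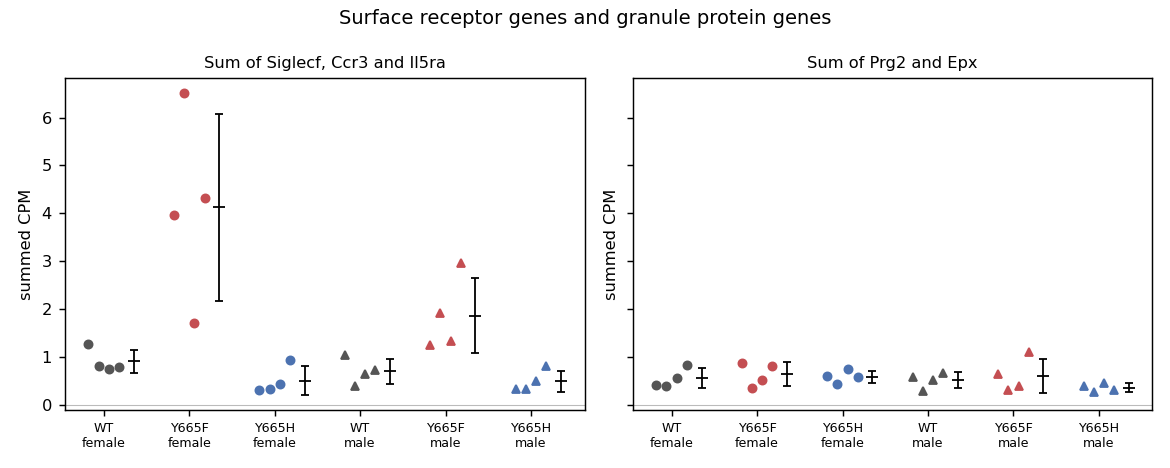
Summed CPM of 3 surface receptor genes (left) and of 2 granule protein genes (right) in each library, by genotype and sex, on a shared linear axis with the mean and SD beside the points. The receptor sum in Y665F females ran from 1.72 to 6.50 CPM and that of WT females from 0.753 to 1.28 CPM, while the granule sums of those groups overlapped.

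Alox15 encodes a lipoxygenase that oxidises polyunsaturated fatty acids in eosinophils and in resident macrophages of the peritoneum, and it was the most abundant member. Y665F females had 41.1, 28.9, 17.7 and 51.2 CPM and WT females 17.7, 9.10, 10.6 and 13.0 CPM. All Y665F libraries but library 3 exceeded all WT libraries, and that one fell just below the highest WT value. The log2 fold change was 1.33 (SE 0.34, adjusted p = 0.0681, edgeR). In males the log2 fold change was 0.24 (SE 0.55, adjusted p = 0.827), from 11.3, 26.7, 8.72 and 10.6 CPM in Y665F and 14.5, 3.68, 19.0 and 13.1 CPM in WT. The difference between the sexes was -1.08 (SE 0.68, adjusted p = 0.352). Y665H females and males had 13.6 ± 4.09 and 17.5 ± 4.44 CPM (SD, n = 4). These means lay within the ranges of WT libraries of the same sex, whose highest values were 17.7 and 19.0 CPM, but library 1 of the Y665H females (18.9 CPM) and library 4 of the Y665H males (23.3 CPM) exceeded them. Of the 10 peritoneal macrophage genes on the list that holds Alox15, 6 had a positive log2 fold change in Y665F females, the median was 0.24 and none was called, against a median of 0.02 over all genes.

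Divided by transcript length, the members ranked as follows in Y665F females, in CPM per kilobase of exon. Alox15 stood at 14.1 ± 5.94, Rnase2a at 2.97 ± 0.487, Prg2 at 0.694 ± 0.300, Siglecf at 0.597 ± 0.268, Ccr3 at 0.520 ± 0.273, Ear1 at 0.357 ± 0.188, Il5ra at 0.211 ± 0.0993, Ear2 at 0.182 ± 0.146 and Epx at 0.0217 ± 0.0123 (SD, n = 4). In WT females Rnase2a had a mean of 0.151 ± 0.116, below that of Prg2 at 0.599 ± 0.249 on the same scale. The means of Rnase2a and Prg2 were thus in opposite order in the 2 groups.

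WT males and WT females did not differ by the test in any of the 3 members that passed the filter, where 13.1% of 15865 genes were called. Siglecf stood at a log2 fold change of -0.40 (SE 0.40, adjusted p = 0.506, edgeR), Prg2 at -0.54 (SE 0.47, adjusted p = 0.446) and Alox15 at -0.14 (SE 0.45, adjusted p = 0.845). No member had an unadjusted p under 0.05, as 5319 genes did. For the effect of Y665H, a dependence on sex was called for none of 4 members and for 0.0119% of 16827 genes. Rnase2a, which had 73 counts in Y665H males and 1 in Y665H females, is among the 4 as a description with no test, since the female values chose it.

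Il5, the cytokine that supports eosinophils, was close to the detection limit, at 0.209 ± 0.0830 CPM in Y665F females and 0.189 ± 0.171 CPM in WT females. Csf2rb, the shared beta chain, and Csf2rb2, its interleukin 3 counterpart, stood at log2 fold changes of 0.35 (SE 0.15, adjusted p = 0.185) and 0.48 (SE 0.19, adjusted p = 0.163) in Y665F against WT females. Of the 15 tested genes of interleukin 5 family signalling and eosinophil development, 11 were positive with a median of 0.35, and 1 was called. Over all genes of that comparison 52.8% were positive with a median of 0.02, and 3.33% were called. The called gene was Cebpe, a transcription factor of granulocyte maturation, with a log2 fold change of 1.59 (SE 0.32, adjusted p = 0.0410, edgeR). All its Y665F libraries but not all WT libraries lay above the filter level of 0.292 CPM. It thus entered the fit through the group in which it was high, and its call is a description. Its libraries ran from 0.687 to 1.54 CPM in Y665F females, from 0.259 to 0.430 CPM in WT females and from 0.0258 to 0.170 CPM in Y665H females, with no overlap between any of these. Gata1 stood at 0.93 (SE 0.52, adjusted p = 0.284).

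Csf2ra, the alpha chain of the receptor for GM-CSF, another cytokine that sustains eosinophils, was lower in Y665H than in WT females and lower in Y665H than in Y665F males. In females its log2 fold change against WT was -0.83 (SE 0.17, adjusted p = 0.0379, edgeR), from 24.8, 28.2, 22.8 and 18.8 CPM in Y665H against 49.9, 35.2, 35.2 and 50.4 CPM in WT. In males it was -1.13 against Y665F (SE 0.14, adjusted p = 0.0154), from 35.2, 50.8, 46.4 and 43.2 CPM against 102.5, 92.9, 91.6 and 85.9 CPM. Neither pair of groups overlapped, where 6.81% of genes in the first contrast and 6.17% in the second were lower without overlap. Csf2ra was the 1 gene called of the 12 tested from its list in the first of these contrasts, where 3.34% of all genes were called. In the second it was the 1 gene called of the 14 tested, where 1.03% of all genes were. In Y665F against WT females it stood at 0.42 (SE 0.20, adjusted p = 0.223, edgeR), and those groups overlapped. Against WT males, Csf2ra stood at 0.87 in Y665F males (SE 0.12, adjusted p = 0.0873) and at -0.25 in Y665H males (SE 0.16, adjusted p = 0.438), which overlapped with WT males.

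Neither eotaxin was called in either mutant against WT of the same sex. Ccl11 (eotaxin 1) stood at a log2 fold change of -0.32 (SE 0.24, adjusted p = 0.410) and Ccl24 (eotaxin 2) at 0.43 (SE 0.31, adjusted p = 0.390) in Y665F against WT females. Among 10 tested chemokines that attract eosinophils, 8 were positive with a median of 0.59, where 52.8% of all genes were positive with a median of 0.02 and 3.33% were called. The 1 called was Ccl5, a ligand of CCR3 that T cells also make. It had a log2 fold change of 1.30 (SE 0.20, adjusted p = 0.0205, edgeR) in Y665F females and of -1.21 (SE 0.23, adjusted p = 0.0341) in Y665H females, each against WT. In Y665H against WT females 1 of 10 tested chemokines was positive, with a median of -0.81, where 49.4% of all genes were positive. There 1 chemokine was called, where 3.34% of all genes were. Ccl24 stood at -0.55 (SE 0.16, adjusted p = 0.0830, edgeR), lower without overlap, where 6.81% of genes were. In males all 12 chemokines tested were positive in Y665F against WT, with a median of 0.65, where 45.2% of all genes were positive with a median of -0.04, and none was called.

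Among 7 tested genes of type 2 cytokines and alarmins none was called in Y665F against WT females, with a median of 0.29. Of these, 6 of 7 were positive in females and 2 of 7 in males, where 52.8% and 45.2% of all genes were. Il33, an alarmin that acts upstream of eosinophils, stood at 0.42 in females (SE 0.17, adjusted p = 0.171, edgeR). In Y665F against WT males Il33 stood at -0.54 (SE 0.25, adjusted p = 0.313), with a difference between the sexes of -0.96 (SE 0.32, adjusted p = 0.146, edgeR). Its receptor gene Il1rl1 was lower in Y665H than in Y665F males, with a log2 fold change of -0.89 (SE 0.13, adjusted p = 0.0219, edgeR), from 9.72, 9.61, 9.95 and 9.77 CPM against 19.5, 16.5, 19.0 and 14.9 CPM, with no overlap. Against WT it was not called in either sex of Y665F, at 1.12 in females (SE 0.28, adjusted p = 0.0695) and 1.19 in males (SE 0.34, adjusted p = 0.215), with no overlap in either. In Y665H against WT males it stood at 0.31 (SE 0.33, adjusted p = 0.604), and those groups overlapped.

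Of 21 tested further genes that eosinophils express and share with other myeloid cells, 5 rose and 1 fell in Y665F females, with 19 positive and a median of 0.63. Over all genes 2.31% were called higher and 3.33% in either direction, 52.8% were positive and the median was 0.02. The highest-ranked by p were Itga4, an integrin chain, at 0.98 (SE 0.15, adjusted p = 0.0207), Itgax, the CD11c chain, at 1.31 (SE 0.22, adjusted p = 0.0251), P2ry14, a nucleotide-sugar receptor, at 1.00 (SE 0.19, adjusted p = 0.0356) and Cd300lf, an inhibitory myeloid receptor, at 1.75 (SE 0.36, adjusted p = 0.0411), all by edgeR. Ltc4s, which makes leukotriene C4, was the one that fell, at -1.09 (SE 0.23, adjusted p = 0.0423), and was named after its value was seen. Adgre1, which encodes F4/80, stood at 0.68 (SE 0.16, adjusted p = 0.0545). In males 17 of 21 were positive with a median of 0.67, where 45.2% of all genes were positive, and none was called. In Y665H against WT females 2 of 21 were positive with a median of -0.34, where 49.4% of all genes were positive and 3.34% were called. Itgax was the 1 called, at -1.12 (SE 0.21, adjusted p = 0.0304, edgeR). Of the 4 tested further genes of the ribonuclease A family none was called in females of either mutant against WT.

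Summed levels of the macrophage, T and NK cell, B cell and ILC2 lists were higher in Y665F than in WT females with no overlap, and their part in the results above was not tested. The summed level of 12 macrophage genes, all above 1 CPM, was 1475 to 2374 CPM in Y665F females, 1052 to 1465 in WT females and 765 to 1137 in Y665H females. In males it was 1291 to 1967 CPM in Y665F, 715 to 1342 in WT and 1247 to 1750 in Y665H, and Y665F overlapped with WT. The 10 genes of alternatively activated macrophages, which include Rnase2a, summed to 589 to 1037 CPM in Y665F females and 385 to 431 in WT females, and 9 of 9 tested were positive, where 52.8% of all genes were. The 13 T and NK cell genes summed to 29.6 to 39.6 CPM in Y665F females and 9.16 to 12.5 in WT females, with 8 of 13 called higher, where 2.31% of all genes were, among them the T cell receptor subunit gene Cd3e at 1.92 (SE 0.28, adjusted p = 0.0169). The 11 B cell genes summed to 34.3 to 45.9 CPM against 13.9 to 20.8 CPM. In males the T and NK cell sum was 37.4 to 74.4 CPM in Y665F and 11.6 to 128 CPM in WT, which overlapped through WT male library 2. Most of the sum in that library was 1 gene, Klrb1c, at 117 CPM against a median of 0.752 CPM over the 24 libraries. No gene of any of these lists was called in Y665F against WT males, where 0% of all genes were. The 12 genes of type 2 innate lymphoid cells (ILC2), which include Il5 and Il1rl1, summed to 149 to 240 CPM in Y665F females, highest in library 3, and 99.9 to 128 CPM in WT females. Of 9 tested, 2 were called higher (Il7r and Klrg1) and the median log2 fold change was 1.01. Rora and Gata3 weigh heavily in this ILC2 sum, with medians of 106 and 4.36 CPM over the 24 libraries and a Gata3 maximum of 106.7 CPM. Gata3 stood at 2.88 in Y665F against WT females (SE 1.17, adjusted p = 0.166, edgeR), and those groups overlapped. Il5 had 183 counts in all 24 libraries together. Whether ILC2 cells were more numerous was not tested. The 10 genes of non-classical monocytes, which include Ear2, summed to 113 to 137 CPM against 93.9 to 134 CPM, with 2 of 8 called higher (Spn and Itgal). Mast cell and basophil genes summed to 36.0 to 41.8 CPM in Y665F females and 41.1 to 48.2 CPM in WT females; the basophil gene Mcpt8 had 6 counts in all 24 libraries. The 11 neutrophil genes summed to 5.42 to 7.50 CPM in Y665F females and 4.82 to 7.63 CPM in WT females.

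**Figure D4:**
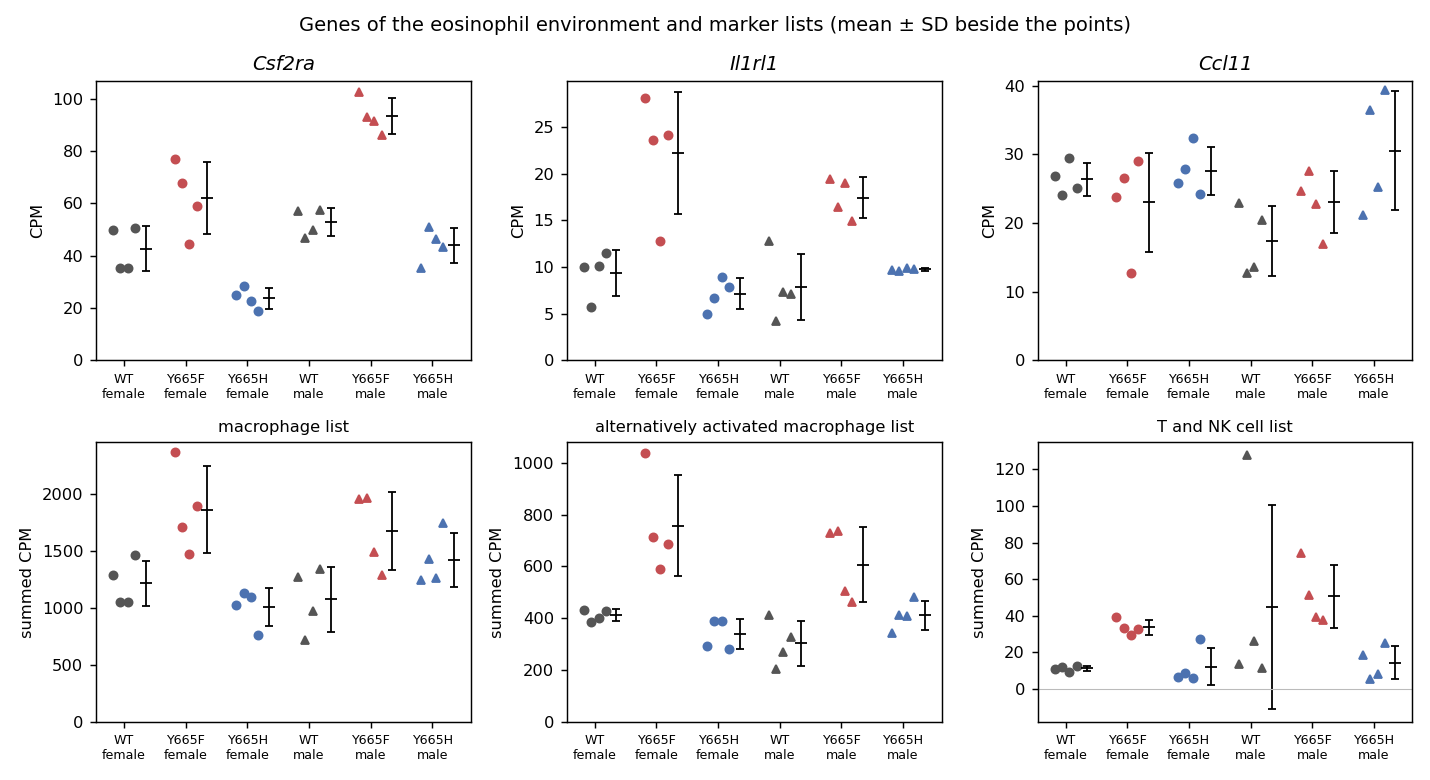
CPM of the genes Csf2ra, Il1rl1 and Ccl11 (top) and summed CPM of 3 marker lists (bottom) in each library, by genotype and sex, on linear axes with the mean and SD beside the points. The macrophage, alternatively activated macrophage and T and NK cell lists were higher in Y665F than in WT females with no overlap, while Ccl11 overlapped between those groups. In the T and NK cell list 1 WT male library reached 128 CPM, of which the gene Klrb1c made up 117 CPM.

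Over the 24 libraries the genes whose levels followed those of Rnase2a most closely were Gna15, Tiam1, Dock8, Psd4 and H2-DMa, with Spearman rho of 0.91, 0.89, 0.89, 0.89 and 0.89 among 14838 genes. Those closest to Siglecf were 4930512J16Rik, Il1rl1, Relt, Sla and Siglecg, with rho of 0.87, 0.85, 0.85, 0.85 and 0.84. Those closest to Ccr3 were Gm15413, 2010106C02Rik, Kcnq1ot1, Pvt1 and Ly75, with rho of 0.88, 0.86, 0.85, 0.84 and 0.83. No gene was among the 5 closest of more than 1 of these 3 members. Among members, rho was 0.66 between Rnase2a and Siglecf, 0.47 between Rnase2a and Ccr3 and -0.01 between Rnase2a and Prg2. These values are descriptions over libraries that share genotype, sex and depth.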

How the data were processed

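Total RNA was depleted of ribosomal RNA and made into stranded libraries that were sequenced in pairs, per the labels' protocols. The files the authors deposited hold raw read counts per gene symbol, and FastQC 0.11.9, Trimmomatic 0.36, STAR, SAMtools 1.9, Picard 2.9.2, HTSeq 0.9.1 and mm10 are named per the submitters' processing notes. The annotation and strand setting are not given in the sources used here. Entries that name no gene, 24.8 to 39.7% of counts per library, were left out.

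Each contrast was fitted on its own libraries with edgeR 4.0.16 (R 4.3.3, limma 3.58.1; quasi-likelihood F test, TMM scaling, filterByExpr with a minimum count of 10), with Benjamini-Hochberg adjustment over all genes and a threshold of 0.05. The SE was taken from the fold change and F. Members below the filter were tested by two-sided exact permutation of CPM. The code was tested on simulated data. Alternatives were DESeq2 1.42.0, library totals, no filter, all 24 libraries, a replicate block and leaving out each library. Covariates for muscle or epididymis genes, and log2(CPM + 1) in the exact tests, were added after seeing the data.

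The members and lists were chosen with earlier results of these data known. All members were named, with a few genes given in every case, the first 4 called genes per list and contrast in order of p, and the 5 genes closest to Rnase2a, Siglecf and Ccr3 among those with a mean of at least 1 CPM. Called genes were left unnamed for WT males against WT females and for Y665H against Y665F females.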

Additional observations from a re-analysis of the deposited data

Results flagged for a closer look

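Of 54 groups of 4 libraries, 5 held a library far from the other 3 by Dixon's criterion. Chance alone gives about 1 in 20 for normally distributed values, a rate that need not hold for CPM from few counts. A group with 1 count in 1 library and none in the other 3 always meets the criterion, as Rnase2a did. Rnase2a had 0.0258 CPM, 1 count, in library 1 of the Y665H females and no count in the other 3. Ear1 had 0.435 CPM (14 counts) in library 3 of the Y665H females, against 0.0775 to 0.137 CPM. Il5ra had 0.191 CPM (4 counts) in library 3 of the Y665F males, against 0.449 to 0.481 CPM. Epx had 0.449 CPM (14 counts) in library 4 of the Y665F males, against 0.0321 to 0.0502 CPM. Alox15 had 26.7 CPM in library 2 of the Y665F males, against 8.72 to 11.3 CPM.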

How the results depend on the processing

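Of 682 values for single members under other settings, 612 kept their direction and side of the threshold, 27 lost a call, 14 gained one and 29 changed sign. The sign changes fell on 10 results with a log2 fold change of at most 0.42 in size, and none had an adjusted p under 0.699. The number of members called in Y665F against WT females was 3, with Rnase2a counted as a description with no test. It became 5 under DESeq2 and under library totals, 1 without the filter and 0 with the muscle covariate, and 1 to 5 when single libraries were left out. Of all genes, 521 were called there, and 2027 by DESeq2, 1164 under library totals and 390 without the filter. In Y665F against WT males, 0 members became 1 under DESeq2 and 2 in the fit over all 24 libraries, which called 1141 and 2261 genes. In Y665H against Y665F males, 0 became 1 in both, with 1097 and 400 genes against 164. In Y665H against Y665F females, where the count is a description, 4 became 2 with the muscle covariate and 3 to 5 when single libraries were left out. Apart from the fewer samples or genes that some alternatives use, the cause was not tested. Library totals moved the median over all genes in Y665F against WT females from 0.02 to 0.15.

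In log2 fold changes, Ear1 in Y665F against WT females turned to 0.12 under library totals and 0.40 with the muscle covariate. In Y665F against WT males, Prg2 turned to -0.036 and Alox15 to -0.33 with the epididymis covariate. Alox15 in WT males against WT females turned to 0.013 under library totals. When single libraries were left out, ranges spanned 0 for Ear1 (-0.36 to 0.22) and Prg2 (-0.16 to 0.37) in Y665F against WT females, Alox15 in males (-0.28 to 0.54), Prg2 (-0.13 to 0.32) and Alox15 (-0.10 to 0.34) in Y665H against WT females, Prg2 in Y665H against Y665F females (-0.23 to 0.21), Alox15 in WT males against females (-0.42 to 0.16), and the sex differences of Prg2 (-0.062 to 0.49) and Ccr3 (-0.71 to 0.0055) for Y665F. The exact tests gave 2 p-values under 0.05 on the log2 scale as well.

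Libraries share replicate numbers, but the smallest correlation of same-numbered deviations was below 0 in all 7 contrasts (-0.37 to -0.02), so the numbers were not taken as pairs. With the replicate block, member counts were as without it, 3 in Y665F against WT females, where Siglecf (1.91, adjusted p = 0.0908, edgeR) lost its call and Alox15 (1.27, adjusted p = 0.0460) gained one, and Prg2 in Y665H against Y665F females turned to 0.0062. The block moved all genes called from 521 to 676 in that first contrast, from 516 to 32 in Y665H against WT females, from 2689 to 1583 in Y665H against Y665F females, from 164 to 0 in Y665H against Y665F males and from 2079 to 825 in WT males against females.

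Depth limits these results: members other than Alox15 lay near the level of a few counts, so differences of small size in Ear1, Ear2, Prg2 and Epx were not detectable.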
